A study of Mus musculus with 12 samples.

Results

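The genes described here are 10 imprinted genes with known roles in growth: H19, Igf2, Igf2r, Meg3, Dlk1, Peg3, Grb10, Plagl1, Ndn and Mest. They were chosen by name, by an exact match to the gene names in the count files, and are 10 of the 55335 genes counted in each of 12 libraries. All 10 passed the filter on low counts and belong to the 22635 genes tested. The libraries came from mouse muscle stem cells (MuSCs), the Pax7-expressing cells that lie between a muscle fiber and its sheath and regenerate muscle. The study asked whether pressing cultured MuSCs flat returns them to quiescence.

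All 4 groups came from hindlimb muscle of Pax7-ZsGreen mice aged 3 to 6 months, in which the Pax7 promoter drives a green fluorescent protein, and all cells were sorted for that protein. F cells were freshly isolated and lysed at the sort, without culture. 2d-U cells grew uncompressed for 2 days on plastic coated with Matrigel and fibronectin, in a growth medium with serum, chicken embryo extract and FGF. 5d-U cells grew in the same way for 5 days. 2+3d-C cells grew uncompressed for 2 days and then spent 3 days under a silicone film with short pillars (the compression pillar). Each group had 3 libraries, with the labels' own numbers, which are 1, 4 and 5 for F, 1, 2 and 3 for 2d-U, 1, 2 and 6 for 5d-U, and 4, 5 and 10 for 2+3d-C. The sources used here do not say which libraries share an animal, a sort or a culture, so the p-values measure the spread between these libraries, which may be technical.

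An imprinted gene is read from only 1 of its 2 parental copies, and the choice is written as DNA methylation in the germ line and kept by the cell afterwards. Many imprinted genes act on growth and on the balance between quiescent and dividing stem cells, and genes read from the father's copy often favour growth while genes read from the mother's copy often restrain it. H19 and Igf2 are neighbours on chromosome 7 and are read from opposite copies, and so are Meg3 and Dlk1 on chromosome 12. In muscle, H19, Igf2, Dlk1 and Mest are known from fetal and regenerating tissue. The counts do not tell the parental copies apart, so they give the summed level of a gene and say nothing of its imprint.

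Both H19 and Meg3 are long non-coding RNAs that hold microRNA hairpins. Of 9 mature microRNAs that RefSeq (GRCm38.p6) places inside 4 of the members on the same strand, those of H19 and Meg3 are shown because these hosts differed most, in opposite directions, between compressed and uncompressed cells. The capitals mark the seed, bases 2 to 8, and the 9 seeds are all different. Mature microRNAs were not measured by these libraries.
miR-675-5p (H19): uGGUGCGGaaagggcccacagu
miR-675-3p (H19): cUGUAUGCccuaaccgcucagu
miR-770-5p (Meg3): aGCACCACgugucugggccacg
miR-770-3p (Meg3): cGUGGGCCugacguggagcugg
miR-1906 (Meg3): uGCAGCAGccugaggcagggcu

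Promoter windows, 250 bases before to 50 bases from the start site, were in the RefSeq table for 9 of the 10 members, with 16 windows in all. Those of Meg3 and Dlk1 are shown because both genes were higher in 2+3d-C cells than in 2d-U and 5d-U, and that of Peg3 because it shares a motif with Meg3. The Meg3 window lies at chr12:109540746-109541045 on the plus strand, the Dlk1 window at chr12:109452573-109452872 on the plus strand and the Peg3 window at chr7:6730370-6730669 on the minus strand (all GRCm38.p6). Capitals mark the motifs searched on both strands: TGACGTCA (the cyclic AMP response element), TATAAA (the TATA box), CAGCTG (an E-box of the kind bound by MyoD) and GGGGCCCC (the core bound by PLAGL1). The first and the second of these were chosen after the sequences had been read.
Meg3: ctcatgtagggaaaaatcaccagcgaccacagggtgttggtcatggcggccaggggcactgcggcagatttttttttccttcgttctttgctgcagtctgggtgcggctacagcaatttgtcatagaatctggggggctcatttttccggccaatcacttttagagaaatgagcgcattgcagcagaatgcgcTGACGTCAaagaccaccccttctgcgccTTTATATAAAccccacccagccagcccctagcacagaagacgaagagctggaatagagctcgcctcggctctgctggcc
Dlk1: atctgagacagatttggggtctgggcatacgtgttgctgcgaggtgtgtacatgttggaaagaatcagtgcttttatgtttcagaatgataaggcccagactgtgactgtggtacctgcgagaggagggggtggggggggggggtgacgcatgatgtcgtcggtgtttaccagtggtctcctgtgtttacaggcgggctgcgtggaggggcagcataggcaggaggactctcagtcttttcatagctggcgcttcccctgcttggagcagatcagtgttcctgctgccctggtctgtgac
Peg3: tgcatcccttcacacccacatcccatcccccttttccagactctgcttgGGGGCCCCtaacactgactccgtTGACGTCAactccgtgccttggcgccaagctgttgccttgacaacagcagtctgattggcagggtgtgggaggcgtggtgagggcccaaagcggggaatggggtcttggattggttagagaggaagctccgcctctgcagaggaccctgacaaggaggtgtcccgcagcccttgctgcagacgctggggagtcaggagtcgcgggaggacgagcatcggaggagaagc
TGACGTCA was present in 2 of the 16 windows, starting at position -57 from the start site in Meg3 and at -178 in Peg3, and in 1.79% of all 32851 promoter windows. TATAAA matched in the Meg3 window alone, at -29 and -25 on opposite strands with the matches overlapping, against 13.6% of all windows. CAGCTG was found in 1 Mest window, at -135, against 16.3% of all windows, and GGGGCCCC in the Peg3 window, at -201, against 1.08%. None of these letters is in the Dlk1 window, which says nothing about the factors. The Grb10 window at chr11:12037371-12037670 had the most CpG sites, 45 in 300 bases, and the shown Meg3 and Dlk1 windows had 13 and 9, with a median of 7 over all windows.

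The libraries held 12540745 to 62424851 counted reads each. Reads on 1853 autosomal genes of silent families (such as olfactory receptors) stood at 3.84 and 0.641 per kb in 5d-U replicates 1 and 6 and at 5.12 and 7.24 in F replicates 4 and 5, against 0.00967 to 0.229 in the other 8 libraries, so these 4 libraries stand apart and values without them are given below. The fit without them holds 5d-U replicate 2 and F replicate 1 as the lone library of their groups, and takes each to vary as the libraries of 2d-U and 2+3d-C do. Pax7 was found in every library, at 1.52 to 3.68 reads per kb of exon, scaled to library size (RPKM), in F, 5.1 to 6.46 in 2d-U libraries, 2.44 to 5.73 in 5d-U libraries and 10.3 to 15.0 in 2+3d-C. Except for the myofiber markers, markers of other cells were high in F and partly present in 2+3d-C. The 10 fibroadipogenic markers summed to 393 to 1270 RPKM in F, 36.2 to 45.3 in 2d-U libraries, 16.9 to 38.5 in 5d-U libraries and 240 to 348 in 2+3d-C. The 10 endothelial markers summed to 297 to 541, 3.08 to 3.89, 1.97 to 10.3 and 63.5 to 161, the 10 pericyte and smooth muscle markers to 262 to 293, 29.2 to 39.0, 23.2 to 329 and 145 to 200, and the 10 glial markers to 117 to 186, 0.774 to 1.19, 1.13 to 5.04 and 47.7 to 100, in the same order. The 10 immune markers summed to 602 to 2620, 0.592 to 1.41, 1.47 to 119 and 25.7 to 141, and the 10 myofiber markers to 44.0 to 1810, 50.7 to 82.1, 113 to 2610 and 72.0 to 152. The myofiber sums were 44.0 in F replicate 1, and 1430 and 2610 in 5d-U replicates 2 and 6. Single genes carried much of some sums, so the sums do not measure amounts of cells. The smooth muscle marker Acta2 alone had 28.5 to 38.6 RPKM in 2d-U libraries, 20.5 to 325 in 5d-U libraries and 60.1 to 125 in 2+3d-C. Of the fibroadipogenic markers, Dpt had 119 to 218 RPKM in 2+3d-C, and Cd34 had 29.4 ± 2.08 in 2d-U. In 2+3d-C against 5d-U, 5 fibroadipogenic, 7 endothelial, 7 pericyte and smooth muscle, 3 glial, 1 immune and 1 myofiber marker were called higher, and 1 immune and 3 myofiber markers lower. Of all tested genes, 9.14% were higher and 13.4% lower. Notch3, among the pericyte markers called higher, is a receptor that the paper also stained in the MuSCs themselves. Of 9 MuSC markers, 6 were higher and 0 lower in the same comparison. Among these 6 was Myod1, with 942 ± 336 RPKM in 5d-U libraries and 3180 ± 1210 in 2+3d-C. The paper uses its protein to mark progenitors and committed cells, and its absence to mark stem cells. Of single defining markers, Ptprc had 0 reads in all 2d-U and 2+3d-C libraries, and Pdgfra had 0 reads in 2d-U libraries, 15 to 88 in 5d-U libraries and 2 to 454 in 2+3d-C. The levels of 6 members (Igf2, Igf2r, Meg3, Dlk1, Peg3 and Plagl1) were, as these sums mostly were, high in F, low in 2d-U and high again in 2+3d-C. The part of other cell types in those results was not tested, and in bulk RNA fewer cells of a type and less RNA per cell cannot be told apart.

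**Figure D1:**
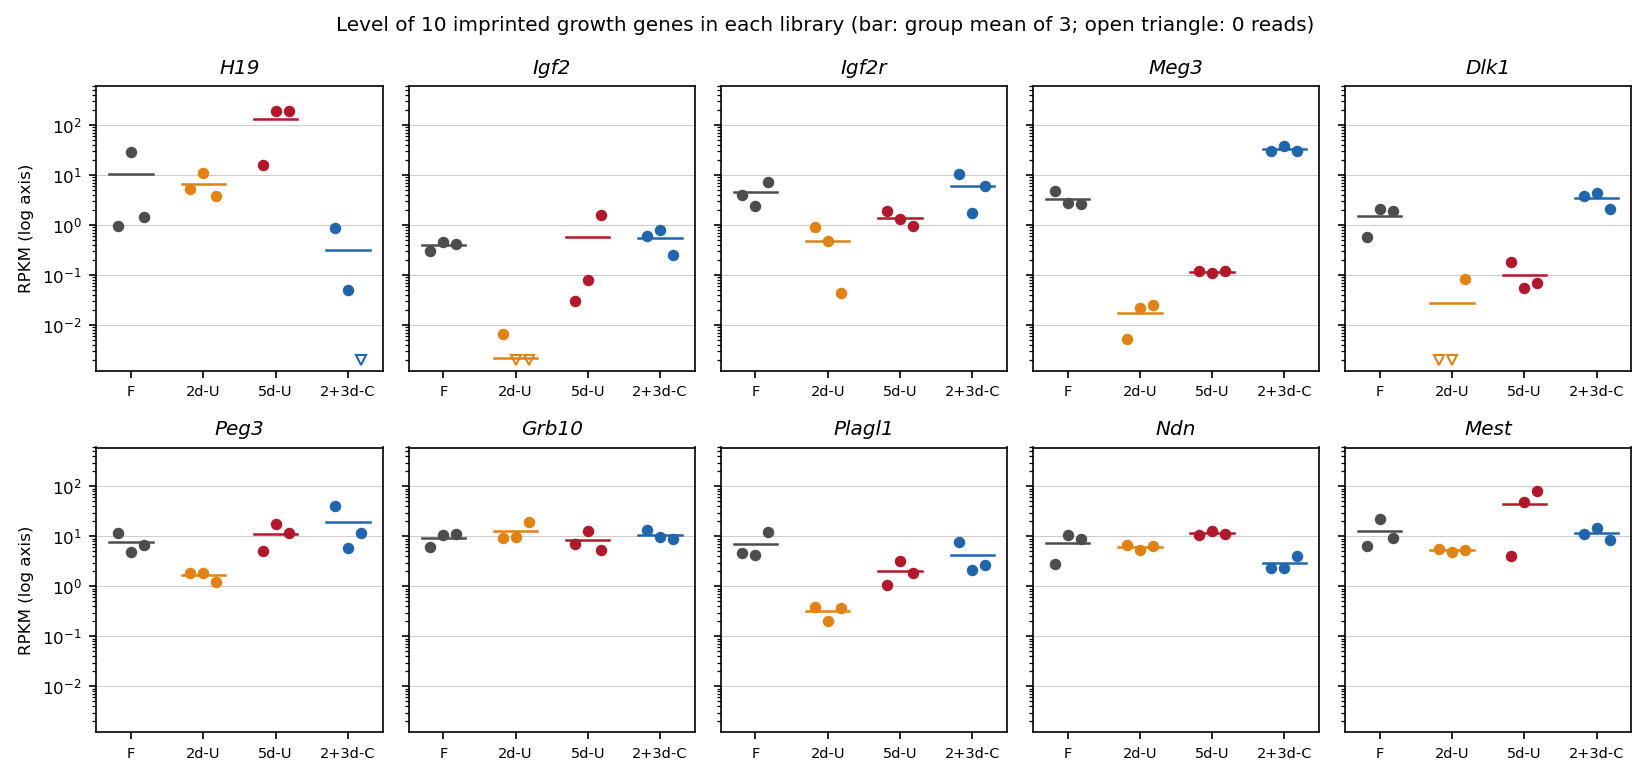
Level of each of the 10 genes in each of the 12 libraries, in RPKM on a log axis, by group. Points are libraries in the order of their replicate numbers, bars are group means (n = 3) and open triangles stand for 0 reads. Meg3 in 2+3d-C lay above every other library, and H19 in 2+3d-C below.

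Compression was first set against culture of the same total length, 2+3d-C against 5d-U. Among the members, 2 were higher under compression (Meg3 and Dlk1) and 2 were lower (H19 and Ndn) in edgeR's quasi-likelihood test with an adjusted p under 0.05. Over all tested genes, 9.14% were called higher and 13.4% lower. The median log2 fold change of the 10 genes was 0.55, against -1.05 over all tested genes. Against the 2d-U cells, the state just before the pillar was applied, 6 were higher and 1 lower, with 16.0% and 8.63% of all genes called in these directions and medians of 3.62 for the members and 0.00 for all genes. The all-gene median was also 0.00 with DESeq2 and without TMM scaling. Genes with 0 reads in both groups, such as Ptprc, enter it with a fold change of 0.00. Their number was not counted, so this median does not stand for expressed genes alone. Against F, 1 was higher (Meg3) and 0 were lower, beside 1.94% and 4.47% of all genes. For that count of 0, 2 members were lower at an unadjusted p under 0.05, and DESeq2 called 2. The medians were 0.30 for the members and -0.76 for all genes.

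The uncompressed groups showed a fall and a partial return. From F to 2d-U, 6 members fell and 0 rose, beside 33.3% and 10.6% of all genes. For the count of 0, no member rose at an unadjusted p under 0.05 and DESeq2 called 0. Medians were -2.76 for the members and -1.63 for all genes. From 2d-U to 5d-U, 3 rose (Igf2, Meg3 and Peg3) and 0 fell, beside 1.87% and 0.243% of all genes, with medians of 2.73 and 1.13. In that direction, 0 members fell at an unadjusted p under 0.05 or in DESeq2. None of the 3 calls of a rise was kept with silent-family reads subtracted or without 2d-U replicate 1. For Igf2 the subtraction was too large, since it covered exon bases where reads were dropped. In 5d-U against F, 2 were lower (Meg3 and Dlk1) and 0 higher, beside 8.90% and 11.6% of all genes. Here 2 members were higher at an unadjusted p under 0.05, and DESeq2 called 1. The medians were 0.18 for the members and -0.41 for all genes. The comparisons share groups, so their counts are not independent of each other.

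**Figure D2:**
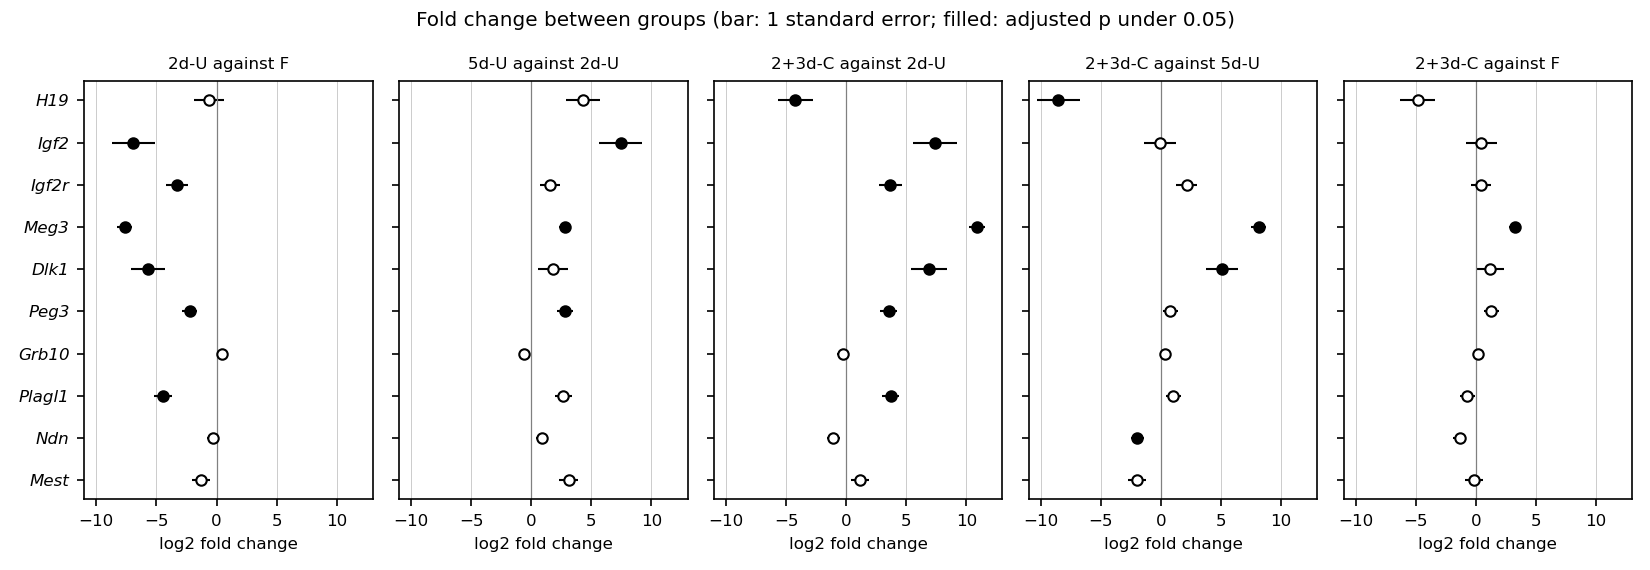
Log2 fold change of each of the 10 genes in 5 comparisons, from edgeR's quasi-likelihood fit over all 12 libraries. Bars are 1 standard error, and filled points have an adjusted p under 0.05. The 6 genes that were lower in 2d-U than in F are those that were higher under compression than in 2d-U. Both comparisons use the same 2d-U libraries, so this match is not independent evidence.

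Igf2 encodes insulin-like growth factor 2, a paternally expressed ligand that drives fetal growth and is made by differentiating myoblasts. It lies on chromosome 7 at 142650766 to 142666816 (mm10, minus strand). Because 62.8% of its exon bases are also those of another gene model, Gm49394, which had 0 reads in all libraries, and reads that fit more than 1 gene were dropped, its level is understated and is compared here only between libraries. Igf2 had 41, 83 and 94 reads in F (0.298, 0.465 and 0.415 RPKM), 2, 0 and 0 reads in 2d-U libraries, 4, 13 and 186 reads in 5d-U (0.0303, 0.0791 and 1.59 RPKM) and 185, 37 and 31 reads in 2+3d-C (0.605, 0.78 and 0.247 RPKM). The 2d-U libraries were at the floor of 3 reads, the F and 2+3d-C libraries overlapped, and 5d-U held both low libraries and the highest of all. Set against 3 reads in each 2d-U library, F was at least 26.1-fold higher, 2+3d-C at least 24.4-fold higher and 5d-U at least 22.6-fold higher (edgeR adjusted p = 0.00917, 0.00855 and 0.0474). The call for 5d-U rests on replicate 6. Without that library, the fitted difference of 5d-U from 2d-U went from 7.45 to 4.13 on the log2 scale (adjusted p = 0.186). The call also ended without any 1 of the 2d-U libraries (adjusted p 0.0768 to 0.144) and without TMM scaling (0.0824). With silent-family reads subtracted, the adjusted p was 0.115. That subtraction took 22.0 such reads for 5d-U replicate 1, against 4 counted. It used the full exon length, although reads on the shared bases were dropped, so it was too large for Igf2. The loss of the call in that fit therefore does not tell what part such reads had. Without the 4 libraries, the higher level in 2+3d-C than in 2d-U was still called (adjusted p = 0.0291), and F against 2d-U was not (0.0717, with 1 F library). The differences of 2+3d-C from 5d-U and from F did not pass the test (-0.06 and 0.47 on the log2 scale, SE 1.32 for both, adjusted p = 0.978 and 0.838).

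Igf2r encodes the receptor that binds IGF2 without passing on a growth signal and carries it to the lysosome, and it is read from the mother's copy. The gene occupies chr17:12682406-12769664 on the minus strand. Its level was 3.96, 2.43 and 7.34 RPKM in F, 0.904, 0.471 and 0.0428 in 2d-U libraries, 1.93, 1.32 and 0.934 in 5d-U libraries and 10.6, 1.71 and 6.02 in 2+3d-C. All 2d-U libraries lay below all others, while 2+3d-C replicate 5 fell among the 5d-U values. Igf2r fell by 3.27 on the log2 scale from F to 2d-U (SE 0.908, adjusted p = 0.014) and was higher by 3.69 in 2+3d-C than in 2d-U (SE 0.926, adjusted p = 0.0102). The call against F ended without F replicate 5 (-2.75, adjusted p = 0.0513) and without the 4 libraries (-3.05, adjusted p = 0.165, with 1 F library). The higher level in 2+3d-C stayed at 3.69 without the 4 libraries, with an adjusted p of 0.0596, and at 3.62 in a fit of both groups alone (0.0514). The difference of 2.13 between 2+3d-C and 5d-U (SE 0.867) missed the threshold, with an adjusted p of 0.0838. Airn, the non-coding RNA that runs across the Igf2r promoter from the father's copy, had 5.68, 1.23 and 2.42 RPKM in F, 0.11, 0.261 and 0.043 in 2d-U libraries, 2.05, 0.842 and 1.98 in 5d-U libraries and 4.9, 12.1 and 3.45 in 2+3d-C. It was lower in 2d-U than in F (adjusted p = 0.00286) and higher in 2+3d-C cells than in 2d-U (adjusted p = 0.000963), as Igf2r was. Counting ignored strand, so reads of unspliced Igf2r cannot be told apart from Airn where both run over the same bases.

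Grb10 encodes an adaptor that binds the insulin and IGF1 receptors and damps their signal. It lies on chromosome 11 at 11930508 to 12038683 (minus strand). Its level was 9.34 ± 2.76 RPKM in F, 12.8 ± 5.58 in 2d-U libraries, 8.36 ± 3.76 in 5d-U libraries and 10.5 ± 2.42 in 2+3d-C (mean ± SD, n = 3). Its libraries overlapped in all 6 comparisons. Log2 fold changes lay between -0.62 and 0.46 with standard errors of 0.445 to 0.447, and no adjusted p was under 0.356. Grb10 and Mest were the members with no call in any comparison.

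Meg3 is a maternally expressed long non-coding RNA that restrains growth in many cell lines and is the start of a long transcript through the Dlk1-Dio3 region. Its gene spans chr12:109541001-109571726 on the plus strand. Meg3 had 2078, 1527 and 1831 reads in F (4.77, 2.71 and 2.56 RPKM), 5, 10 and 20 reads in 2d-U (0.00522, 0.0216 and 0.0245 RPKM), 51, 56 and 44 reads in 5d-U (0.122, 0.108 and 0.119 RPKM) and 28672, 5559 and 12077 reads in 2+3d-C (29.7, 37.1 and 30.5 RPKM). No library of a group overlapped with one of another group. The order was 2d-U, 5d-U, F and 2+3d-C from low to high, and all neighbours in it differed. Meg3 was higher in 2+3d-C by 8.12 than in 5d-U (SE 0.615, adjusted p = 2.8e-06), by 10.9 than in 2d-U (SE 0.691, adjusted p = 1.57e-06) and by 3.28 than in F (SE 0.489, adjusted p = 0.0028), all on the log2 scale. It was the only member above its F level in 2+3d-C by the test. From F to 2d-U it fell by 7.63 (SE 0.613, adjusted p = 8.8e-06), and 5d-U stood 2.78 above 2d-U (SE 0.516, adjusted p = 0.0192).

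The small rise of Meg3 in uncompressed culture is less firm than the other steps. The density of reads on silent families predicts 69.5 reads on Meg3 in 5d-U replicate 1, more than the 51 counted, and 11.6 of the 44 in replicate 6. With such reads subtracted, 5d-U against 2d-U gave 1.70 and an adjusted p of 0.288, and without 2d-U replicate 1 it gave 2.32 and 0.0532. In 2+3d-C at most 3.41 of 28672 reads were expected from this source. Without the 4 libraries that carry these reads, 2+3d-C against 2d-U gave 10.9 (adjusted p = 0.000335). Against the lone 5d-U library the difference was 8.23 (adjusted p = 0.00736), and against the lone F library 2.77 (adjusted p = 0.383). By mean RPKM, Meg3 was above 91.4% of tested genes under compression, 66.2% in F, 31.7% in 2d-U libraries and 19.6% in 5d-U libraries.

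Dlk1 encodes a transmembrane protein related to Notch ligands that holds back adipocyte differentiation and is read from the father's copy. It lies upstream of Meg3 at 109452823 to 109463336 on chromosome 12. It had 77, 361 and 419 reads in F (0.565, 2.05 and 1.87 RPKM), 0, 0 and 21 in 2d-U (0.0821 RPKM in replicate 3), 23, 9 and 8 in 5d-U (0.177, 0.0554 and 0.0691 RPKM) and 1134, 207 and 254 in 2+3d-C (3.75, 4.41 and 2.05 RPKM). The 2d-U and 5d-U libraries overlapped and lay below all F and 2+3d-C libraries. Dlk1 was higher in 2+3d-C by 5.08 than in 5d-U (SE 1.36, adjusted p = 0.0155) and by 6.88 than in 2d-U (SE 1.48, adjusted p = 0.00408) on the log2 scale. From F to 2d-U it fell by 5.69 (log2, SE 1.4, adjusted p = 0.00778). The call against 5d-U was lost without 5d-U replicate 2 (adjusted p = 0.0511) or 6 (0.0612). Without the 4 libraries with silent-family reads the difference was 5.92 against the lone 5d-U library, with an adjusted p of 0.295, and 2d-U against the lone F library gave -4.28 (adjusted p = 0.173), while 2+3d-C against 2d-U kept its call (6.87, adjusted p = 0.0401). All 2d-U reads came from replicate 3, and without it the fitted difference between 2+3d-C and 2d-U rose to 12.2, a value that depends on the prior count. In 5d-U replicate 1, 21.7 of the 23 reads were expected from the silent-family density. Against F, 2+3d-C was 1.19 higher (SE 1.15) with an adjusted p of 0.492, although their libraries did not overlap.

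The ratio of Meg3 to Dlk1, as RPKM within a library, was 7.91, 8.4 and 14.9 in 2+3d-C and 8.44, 1.32 and 1.37 in F. In 5d-U it was 0.693, 1.95 and 1.72, on few reads. The ratio was thus 7.91 or more in each 2+3d-C library and in F replicate 1, and the remaining F libraries gave ratios near those of 5d-U.

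The other genes of the Dlk1-Dio3 region were listed by position. Mirg, a microRNA host at the far end of the maternal transcript, had 0.342, 0.418 and 0.329 RPKM in F, 0 reads in each 2d-U library, 0.137, 0.0239 and 0.121 RPKM in 5d-U libraries and 1.3, 0.678 and 0.882 in 2+3d-C. It was higher by 3.34 in 2+3d-C than in 5d-U (log2, adjusted p = 0.038) and at least 58.5-fold higher than in 2d-U. Rian, the transcript between Meg3 and Mirg, stood at 0.363, 0.166 and 0.337 RPKM in 2+3d-C and at 0.236, 0.175 and 0.382 in F, with 28, 0 and 0 reads in 2d-U. Rian did not pass the test against 5d-U (adjusted p = 0.528), where replicate 1 had 243 reads with 123 expected from silent families. In F replicates 4 and 5 Rian had 174 and 484 reads, with 164 and 232 expected from that source. Mirg had 95 reads in each of these F libraries, with 37.4 and 52.8 expected. In 5d-U replicate 1, Mirg had 23 reads with 28.0 expected. Rtl1, a paternally expressed gene, had 26, 1 and 0 reads in 2+3d-C. Dio3, which encodes the deiodinase that inactivates thyroid hormone, had 146, 3 and 27 reads in 2+3d-C, 32, 43 and 65 in F, 2, 0 and 2 in 5d-U libraries and 0 in 2d-U libraries, and its difference between 2+3d-C and 5d-U (at least 10.9-fold) had an adjusted p of 0.0602. Begain, next to Dlk1, had 2.51, 0.26 and 2.44 RPKM in 2+3d-C against 0.234, 0.0301 and 0.253 in 5d-U (adjusted p = 0.0365). In level Meg3 stood above them, with 29.7 to 37.1 RPKM in 2+3d-C against 0.166 to 1.3 for Rian and Mirg.

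**Figure D3:**
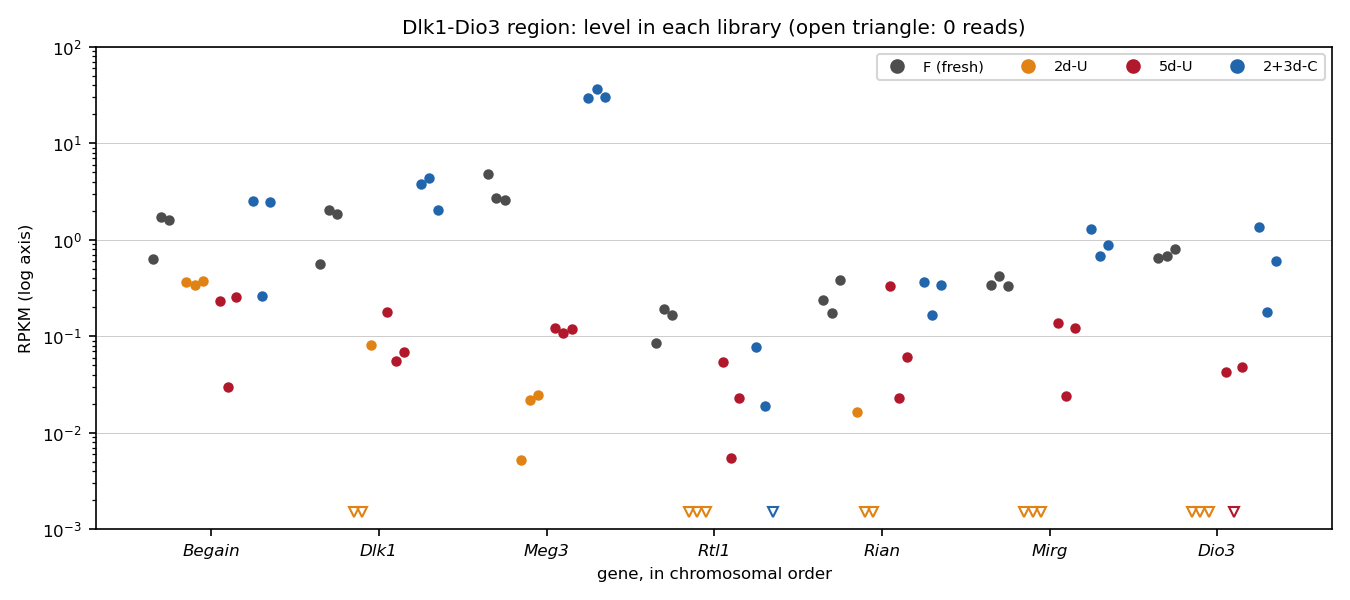
Level of 7 genes of the Dlk1-Dio3 region in each library, in RPKM on a log axis, with the genes in chromosomal order. Each point is a library, coloured by group, and open triangles stand for 0 reads. Meg3 in 2+3d-C, at 29.7 to 37.1 RPKM, stands above the other genes of the region, and 2d-U had 0 reads on Rtl1, Mirg and Dio3.

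H19 is a maternally expressed long non-coding RNA that restrains fetal growth and is abundant in differentiating muscle. The gene spans chr7:142575529-142578143 on the minus strand. It had 55, 2195 and 142 reads in F (0.929, 28.6 and 1.46 RPKM), 690, 692 and 420 in 2d-U (5.29, 11 and 3.78 RPKM), 904, 13427 and 9612 in 5d-U (16.0, 190 and 191 RPKM) and 116, 1 and 0 in 2+3d-C (0.883 and 0.049 RPKM in replicates 4 and 5). All 2+3d-C libraries lay below all others, and all 5d-U libraries above those of 2d-U. The difference of 2+3d-C from 5d-U was -8.53 for H19 (log2, SE 1.75, adjusted p = 0.00324), the lowest among the members, and the call held with each of the 6 libraries of the pair left out in turn (adjusted p 0.000253 to 0.00794). The fitted size ran from -7.98 to -13.0, the latter without 2+3d-C replicate 4, which held all but 1 of the reads of its group, so that this value depends on the prior count. Without the 4 libraries with silent-family reads, which leaves 5d-U replicate 2 alone with 190 RPKM and removes the low replicate 1, the difference was -9.06 (adjusted p = 0.0216). From 2d-U to 2+3d-C it fell by 4.22 (SE 1.45, adjusted p = 0.0467), a call that ended in 3 of the 6 fits with 1 library left out (highest adjusted p 0.103, without 2+3d-C replicate 5), with silent-family reads subtracted (0.0503) and without the 4 libraries (-4.24, adjusted p = 0.0559). Without 2+3d-C replicate 4 the difference was -8.69. Against F the difference of -4.85 (SE 1.49) missed the threshold (adjusted p = 0.0627). So did the rise of 4.31 from 2d-U to 5d-U (SE 1.43, adjusted p = 0.099).

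Within groups H19 varied widely. In F, replicate 4 held 28.6 RPKM and the others 0.929 and 1.46, and in 5d-U, replicate 1 held 16.0 RPKM and the others 190 and 191. The same libraries stood out for Myog, the myogenic factor of early differentiation, which was looked up after these values were seen. Myog had 10737 reads in F replicate 4 against 32 and 198 in the others, 13 reads in 5d-U replicate 1 against 25122 and 33864, 18 to 172 in 2d-U libraries, and 1, 0 and 0 in 2+3d-C. Its part in the H19 result was not tested. Without F replicate 4, 2+3d-C against F gave an adjusted p of 0.325 for H19, and 2 of the 6 fits with 1 library left out called that difference (adjusted p 0.0173 at the lowest).

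The ratio of H19 to Igf2 within a library, which rests on an understated Igf2 level, was 526, 2400 and 120 in 5d-U libraries and 3.12, 61.5 and 3.51 in F. In 2+3d-C it was 1.46 in replicate 4, and in replicates 5 and 10 H19 had 1 and 0 reads beside 37 and 31 of Igf2. In 2d-U H19 had 420 to 692 reads and Igf2 at most 2. H19 and Igf2 thus moved in opposite directions from 2d-U to 2+3d-C, with the fall of H19 called in 3 of 6 fits with 1 library left out. From 2d-U to 5d-U the fitted changes of both were upward. They were 4.31 for H19 (log2, adjusted p = 0.099) and 7.45 for Igf2 (adjusted p = 0.0474), whose call rests on 5d-U replicate 6.

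Mest encodes a hydrolase-like protein of the endoplasmic reticulum, read from the father's copy and high in growing mesoderm. It lies on chromosome 6 at 30723547 to 30748465 (plus strand), and 23.1% of its exon bases overlap Copg2 on the other strand, where reads were dropped. Mest had 6.4, 22.3 and 9.47 RPKM in F, 5.59, 4.82 and 5.35 in 2d-U libraries, 4.01, 49.7 and 81.0 in 5d-U libraries and 11.4, 14.9 and 8.29 in 2+3d-C. As for H19 and Myog, 5d-U replicate 1 was low and F replicate 4 was high. No comparison passed the test. The smallest adjusted p was 0.0548 for 5d-U against 2d-U (3.10 on the log2 scale, SE 0.787), and 2+3d-C against 5d-U gave -1.97 (SE 0.753, adjusted p = 0.0711). Without 5d-U replicate 1, these became an adjusted p of 0.00161 and 0.00292. That was the only call among the 6 fits with 1 library left out, in both comparisons. The highest adjusted p, without 5d-U replicate 6, was 0.144 (2.36 on the log2 scale) and 0.24 (-1.23).

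**Figure D4:**
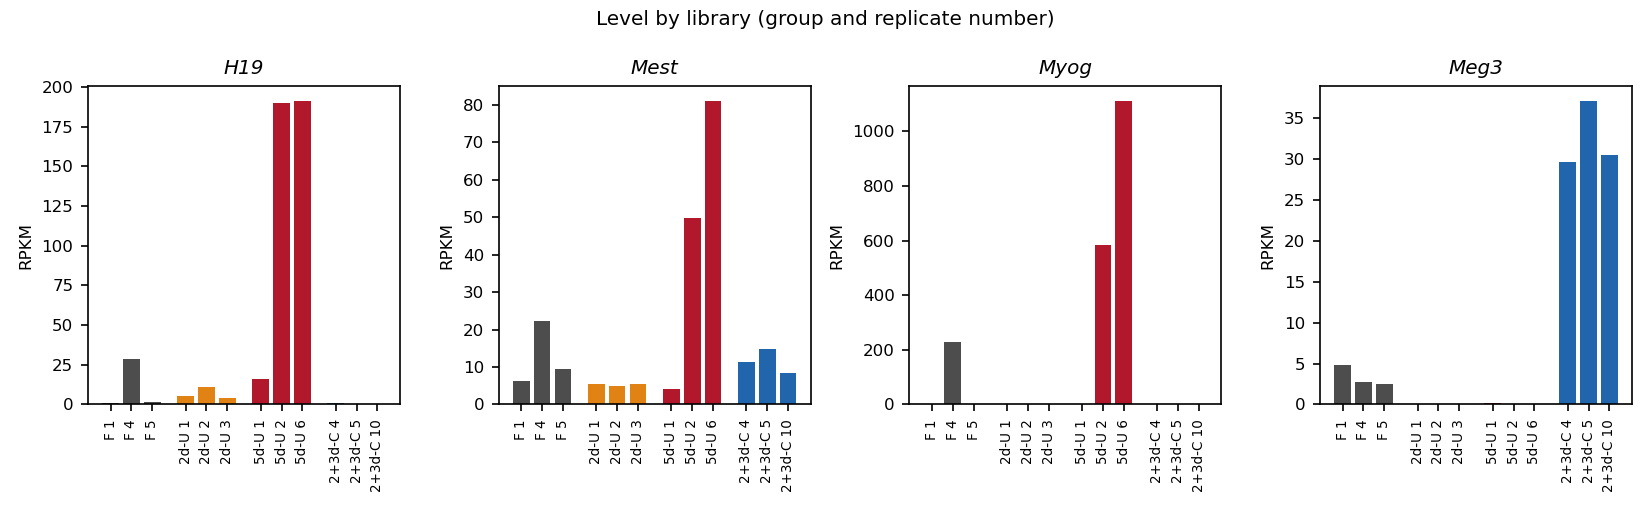
Level of H19, Mest, Myog and Meg3 in each of the 12 libraries, in RPKM on linear axes that start at 0. Bars are single libraries, named by group and replicate and coloured by group. H19, Mest and Myog were highest in 5d-U replicates 2 and 6, with F replicate 4 next, and Meg3 was highest in the 3 libraries of 2+3d-C.

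Peg3 encodes a large zinc finger protein read from the father's copy, which is linked to cell survival and stem cell function. Peg3 (chr7:6703892-6730431, minus strand) had 11.7, 4.91 and 6.85 RPKM in F, 1.88, 1.84 and 1.24 in 2d-U libraries, 5.15, 17.3 and 11.5 in 5d-U libraries and 39.9, 5.8 and 11.8 in 2+3d-C. All 2d-U libraries were below all others, and the other groups overlapped. Peg3 fell by 2.24 from F to 2d-U (log2, SE 0.653, adjusted p = 0.0175) and was higher than in 2d-U by 3.54 in 2+3d-C (SE 0.689, adjusted p = 0.00214) and by 2.78 in 5d-U (SE 0.666, adjusted p = 0.0465). The difference of 0.76 between 2+3d-C and 5d-U (SE 0.627) did not pass the test (adjusted p = 0.35). The call of 5d-U against 2d-U held in 1 of 6 fits with 1 library left out, and ended without TMM scaling (2.32, adjusted p = 0.106) and with silent-family reads subtracted (2.54, adjusted p = 0.096). In the fit without the 4 libraries, 2+3d-C against 2d-U kept its call (3.53, adjusted p = 0.0152), and 2d-U against the lone F library gave -2.81 (adjusted p = 0.0784). The fall from F also lost its call without 2d-U replicate 3 (-2.06, adjusted p = 0.061).

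Plagl1 encodes a zinc finger factor that stops the cell cycle and regulates other imprinted genes, Igf2, H19 and Dlk1 among them. It lies on chromosome 10 at 13060504 to 13131694 (plus strand) and had 4.71, 4.15 and 12 RPKM in F, 0.379, 0.2 and 0.376 in 2d-U libraries, 1.06, 3.24 and 1.82 in 5d-U libraries and 7.79, 2.14 and 2.67 in 2+3d-C. The 2d-U libraries were below all others, and 5d-U below F. Plagl1 fell by 4.44 from F to 2d-U (log2, SE 0.73, adjusted p = 0.000682) and was 3.72 higher in 2+3d-C cells than in 2d-U (SE 0.706, adjusted p = 0.00179). These calls held with each library of the pair left out. Without the 4 libraries with silent-family reads, 2+3d-C against 2d-U gave 3.71 (adjusted p = 0.0127), and 2d-U against the lone F library gave -3.86 (adjusted p = 0.0317). The rise of 2.67 from 2d-U to 5d-U (SE 0.675) had an adjusted p of 0.0531, and the difference of 1.04 between 2+3d-C and 5d-U (SE 0.639) one of 0.206.

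Ndn encodes necdin, a paternally expressed protein that binds E2F factors and acts in the differentiation and survival of myoblasts. Ndn (chr7:62346569-62350262, plus strand) had 2.82, 10.8 and 8.83 RPKM in F, 6.63, 5.41 and 6.54 in 2d-U libraries, 10.8, 12.7 and 11.1 in 5d-U libraries and 2.36, 2.38 and 4.12 in 2+3d-C. The 2+3d-C libraries lay below all 2d-U and 5d-U libraries and overlapped with F replicate 1. The difference of 2+3d-C from 5d-U was -1.96 for Ndn (log2, SE 0.534, adjusted p = 0.0169). Its spread was small in 5d-U and 2d-U, with 11.5 ± 1.06 and 6.19 ± 0.68 RPKM (mean ± SD, n = 3). The call ended without 2+3d-C replicate 4 (adjusted p = 0.063) or 5d-U replicate 2 (0.0513), and without the filter on low counts (-1.74, adjusted p = 0.074). The difference from the lone 5d-U library in the fit without the 4 libraries was -2.10 (adjusted p = 0.104).

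The members were also set beside their own pathway and class. Of 20 tested genes of IGF signalling, 5 were higher and 3 lower in 2+3d-C cells than in 5d-U, and 0 were higher and 13 lower in 2d-U than in F. For that count of 0, 1 was higher at an unadjusted p under 0.05 and DESeq2 called 0. Over all tested genes, 9.14% were higher and 13.4% lower in the first comparison, and 10.6% and 33.3% in the second. Irs2, the adaptor below the insulin and IGF1 receptors, had 33.2 ± 10.5 RPKM in F, 2.08 ± 0.66 in 2d-U libraries, 2.23 ± 2.36 in 5d-U libraries and 59.7 ± 35.3 in 2+3d-C, and was 4.74 higher in 2+3d-C cells than in 5d-U on the log2 scale (adjusted p = 0.000664). The binding proteins went both ways. Igfbp4 was 2.13 higher (adjusted p = 0.0031) with 30.8 ± 2.02 RPKM in 2+3d-C and 7.02 ± 3.01 in 5d-U. Igfbp3 was lower (-2.17), with 8.98 ± 4.98 against 40.2 ± 14.5 RPKM, and it was also lower than in F (adjusted p = 0.00819). Igfbp7, the most abundant of the list with 588 ± 245 RPKM in F, had 7.08 ± 2.94 in 2d-U libraries, 59.7 ± 64.7 in 5d-U libraries and 163 ± 112 in 2+3d-C, and Igfbp6 had 255 ± 156, 1.12 ± 0.59, 11.7 ± 11.7 and 31.6 ± 26.1.

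Other imprinted genes, including several imprinted only in other tissues, followed the same order of groups in part. Of 34 tested, 7 were higher and 3 lower in 2+3d-C cells than in 5d-U, 13 higher and 1 lower than in 2d-U, and 2 were higher and 16 lower in 2d-U than in F. The shares of all tested genes called higher and lower were 9.14% and 13.4%, 16.0% and 8.63%, and 10.6% and 33.3%, in the same order. Against F, 0 were higher and 0 lower in 2+3d-C, with 3 and 8 at an unadjusted p under 0.05 and 0 and 8 in DESeq2. There, 1.94% of all tested genes were called higher and 4.47% lower. Cdkn1c, the maternally expressed cyclin-dependent kinase inhibitor p57 found in quiescent stem cells, had 29.2 ± 5.46 RPKM in F, 0.0679 ± 0.118 in 2d-U libraries, 3.18 ± 3.03 in 5d-U libraries and 30.5 ± 20.0 in 2+3d-C. It was 3.26 higher in 2+3d-C cells than in 5d-U (log2, adjusted p = 0.0391). Calcr, the calcitonin receptor of quiescent MuSCs, had 8.62 ± 11, 0.0129 ± 0.0223, 0.116 ± 0.17 and 13 ± 6.48 RPKM in the same order and was 6.80 higher than in 5d-U (adjusted p = 0.00651). Dcn, a matrix proteoglycan of fibroblasts, reached 581 ± 268 RPKM in F and 44.4 ± 26.7 in 2+3d-C, with 0.843 ± 0.929 in 2d-U. Gab1, an adaptor of receptor kinases, was higher (4.07) and Commd1 lower (-2.71) in 2+3d-C cells than in 5d-U cells (adjusted p = 0.00135 and 0.00492).

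Among 18 tested neighbours of the members in their imprinted clusters, 2 were higher (Mirg and Begain) and 5 lower in 2+3d-C cells than in 5d-U. Over all tested genes, the shares in these directions were 9.14% and 13.4%. Of the 5 tested genes near Ndn, Peg12 and Snrpn were called lower. Peg12 had 15.9 ± 12.7 RPKM in 5d-U libraries and 0.56 ± 0.454 in 2+3d-C (-4.87 on the log2 scale, adjusted p = 0.00316), and Snrpn, which encodes a spliceosome protein, had 16.1 ± 10.6 and 1.29 ± 1.13 (-3.66, adjusted p = 0.0209). Mkrn3, Snhg14 and Ube3a, in the same cluster, did not pass the test (adjusted p = 0.142, 0.322 and 0.519). Near Grb10, Ddc, an enzyme of amine synthesis, was lower (-6.19, adjusted p = 0.0223) while Grb10 was not called. Near Peg3, Zim1 had 0.723 ± 0.456 RPKM in F, 0.0187 ± 0.0266 in 2d-U libraries, 0.485 ± 0.127 in 5d-U libraries and 1.63 ± 0.666 in 2+3d-C and was lower in 2d-U than in F (adjusted p = 0.0047), as Peg3 was. Usp29, also near Peg3, was at the floor in 2+3d-C and at least 43.1-fold lower there than in 5d-U (adjusted p = 0.0253). In that comparison neither Peg3 nor Zim1 was called (0.76 and 1.75 on the log2 scale, adjusted p = 0.35 and 0.176).

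Of 12 genes that keep or remove DNA methylation at imprints, 1 was higher and 2 lower in 2+3d-C cells than in 5d-U. All tested genes had shares of 9.14% higher and 13.4% lower. Zfp57, which guards methylated imprints in early embryos, had 1.70 ± 0.854 RPKM in 5d-U libraries and was at the floor in 2+3d-C, so that 2+3d-C was at least 42.0-fold lower (adjusted p = 0.00142). Uhrf1, which brings the maintenance methylase to replicated DNA, fell under compression, with 26.2 ± 14.0 RPKM in 5d-U and 0.304 ± 0.502 in 2+3d-C (adjusted p = 0.0017). Dnmt1, that methylase, had 9.74 ± 2.42 and 4.17 ± 1.59 RPKM and did not pass the test (adjusted p = 0.0648). Tet2, an enzyme that oxidizes methylated cytosine, was 3.16 higher (log2, adjusted p = 0.00445), with 2.88 ± 1.07 RPKM in 2+3d-C against 0.322 ± 0.273 in 5d-U libraries and 2.08 ± 0.79 in F. Trim28, the partner of ZFP57, and Ctcf, the insulator factor at H19 and Igf2, had 18.9 ± 8.14 and 16.5 ± 9.97 RPKM in 2+3d-C and 34.5 ± 19.6 and 27.3 ± 11.6 in 5d-U libraries and were not called (adjusted p = 0.161 and 0.251).

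The shapes of the members over the 4 groups were compared with those of 8838 or 8839 other named genes whose mean was 10 CPM (reads scaled to library size) or more, by the root mean square distance between group means of log2 CPM centred on each gene's mean. This rests on 4 points a gene and describes the order and size of levels only. H19 and Meg3 had the least common shapes, with 0 and 2 genes within a distance of 0.5. The genes nearest to H19 were Knl1 (0.504), Cdkn2b (0.547) and Alox5 (0.63), and those nearest to Meg3 were Arl4d (0.317), Edn3 (0.456) and Tshr (0.697). Dlk1 was nearest to Kdm6b (0.108), Sphk1 (0.177) and Dio2 (0.185), Igf2 to Id4 (0.168), Tox2 (0.193) and Ppp2r3a (0.211), and Igf2r to Notch2 (0.0683), Ptprd (0.127) and Mpp5 (0.128). Peg3 was nearest to Prrc2c (0.128), Zfc3h1 (0.159) and Akap9 (0.161), and Plagl1 to Chd2 (0.143), Pam (0.169) and Chd9 (0.188). Ndn was nearest to Cdkn2d (0.0447), Rilpl2 (0.0628) and Stau2 (0.064), Mest to Tnrc6a (0.123), Eda2r (0.179) and Anxa1 (0.18), and Grb10 to Spryd3 (0.00996), Hadha (0.0279) and Nup160 (0.0346), with 1530 genes within 0.5 of Grb10. Among the members themselves, the closest pairs were Igf2r with Plagl1 (0.39) and Igf2 with Igf2r (0.567).

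The 10 genes together made up 42.3, 88.9 and 62.1 RPKM in F, 30.1, 33.5 and 36.7 in 2d-U libraries, 46.4, 287 and 304 in 5d-U libraries and 120, 78.9 and 74.3 in 2+3d-C. The gene that led this sum changed with the group. In 5d-U it was H19 in each library, with 34.4%, 66.2% and 62.7% of the sum. In 2+3d-C it was Peg3 in replicate 4 (33.2%, with Meg3 at 24.7%) and Meg3 in replicates 5 and 10 (47.0% and 41.0%). In 2d-U Grb10 led in replicates 1 and 3 (31.3% and 52.5%) and H19 in replicate 2 (32.8%), and in F a different gene led in each library.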

How the data were processed

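The data are gene counts of 12 libraries of mouse MuSCs, grouped by their labels. The authors made SMART-seq v4 libraries, aligned single-end reads to mm10 and counted them on exons of GENCODE genes without regard to strand, and the deposited counts are not normalized. A merged table with the same counts (its 12 columns were identical) was not used. No column of another sample was present.

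Genes passing filterByExpr (22635) were scaled by TMM and fitted in 1 quasi-likelihood model over all 12 libraries with edgeR 4.0.16 in R 4.3.3. Tests were two-sided, with Benjamini-Hochberg adjustment over all tested genes and a threshold of 0.05. RPKM were computed from TMM-scaled sizes and the deposited exon lengths, and log2 CPM with 2 as prior count. Where every library of a group had at most 3 reads, folds were computed against 3 reads per library, which covers counting error only. DESeq2 1.42.0, other filters and scalings, a replicate block, removal of libraries and subtraction of silent-family reads were alternatives. The reads to subtract were set from full exon lengths. This is too many for Igf2 and Mest, where reads on shared exon bases were dropped. With 3 libraries against 3, an exact permutation test cannot give a p under 0.1, so none was made. In data simulated on 2+3d-C against 5d-U (19839 genes), the fit recovered 59 of 100 genes changed 8-fold and 82 of 100 changed 64-fold, with 2 false calls. The simulation gave each gene the same fitted spread in every group and held no silent-family reads. It therefore cannot give the rate of false calls in the real libraries.

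The 10 members, the lists (other imprinted genes, cluster neighbours, IGF signalling, imprint maintenance and cell type markers) and the tests were chosen with earlier results of these data known. Of each list other than the members and markers, the 3 genes with the highest mean RPKM and the 3 with the smallest p in 2+3d-C against 5d-U and in 2d-U against F could be named, and for each member the 3 genes nearest in shape. Genes of the Dlk1-Dio3 region, Mkrn3, Snhg14, Usp29 and Myog were named outside this rule, after their values were seen. Sequences are from RefSeq tables of GRCm38.p6, the build also called mm10.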

Additional observations from a re-analysis of the deposited data

How the results depend on the processing

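With 3 libraries a group and no record of which shared a sort, small differences between groups cannot be resolved, and reads on silent gene families limit the genes with few reads in 5d-U and F. The results above were recomputed with DESeq2, without TMM, without the filter on low counts, with genes of 5 CPM or more, without mitochondrial genes, in fits of 2 groups alone, with a replicate block, with reads expected from silent families subtracted, without the 4 libraries that carry such reads, and with each library left out in turn. None of the 23 called member differences changed sign. DESeq2 and the fit without mitochondrial genes kept all 23, no TMM 21, no filter 22, 2 groups alone 19 of 22, subtraction 19, the replicate block 14 and the fit without the 4 libraries 9. At 5 CPM, 20 of 20 were kept, since Igf2 was not tested. The causes of the losses were not tested, but the last fit has fewer libraries and only 1 each in 5d-U and F, taken to vary like the other groups.

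Members called in 2+3d-C against 2d-U were 7, and 4 with the replicate block. Against F the number went from 1 to 3 with DESeq2, 2 without the filter, 2 with the replicate block and 0 without the 4 libraries. In 2d-U against F it went from 6 to 2 without the 4 libraries. In 5d-U against F it went from 2 to 5 with DESeq2, 6 without the filter and 0 without the 4 libraries. In 5d-U against 2d-U it went from 3 to 6 with DESeq2 or without the filter, 1 without TMM, and 0 after subtraction or without the 4 libraries. With 1 library left out, the numbers were 2 to 5 in 2+3d-C against 5d-U (2 without 5d-U replicate 2), 6 to 7 against 2d-U, 1 to 3 against F (3 without F replicate 1), 5 to 6 in 2d-U against F, 1 to 4 in 5d-U against F (4 without 5d-U replicate 1, 1 without 5d-U replicate 2 or 6 or F replicate 5) and 0 to 6 in 5d-U against 2d-U (0 without 2d-U replicate 1, 6 without 5d-U replicate 1 or 2+3d-C replicate 10).

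Of the 37 differences that did not pass the test, 16 changed sign under some setting. Igf2 in 2+3d-C against 5d-U (-0.06) became 0.12 with DESeq2, 0.10 without TMM, 0.25 without the filter, 0.04 with 2 groups alone, 3.26 with the replicate block, 0.16 after subtraction and 2.77 without the 4 libraries, and -0.63 to 3.28 with 1 library left out. Against F it became -0.10 without TMM. Grb10 in 2+3d-C against 5d-U (0.34) became -0.36 with the replicate block and -0.25 without the 4 libraries. With 1 library left out, Peg3 in 2+3d-C against 5d-U ranged from -0.38 to 1.19.

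The scaling moved the median of all genes in 2+3d-C against 5d-U from -1.05 to -1.21 without TMM and -0.90 with DESeq2, in 5d-U against 2d-U from 1.13 to 0.65 and 0.93, and in 5d-U against F from -0.41 to -0.70 and -0.81. The deviations of same-numbered libraries correlated at -0.42 to 0.03, so the replicate numbers were not taken to pair them.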
